A study of Mus musculus with 12 samples.

Results

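C-type lectins, natural killer (NK) cell receptors and Siglecs are cell surface proteins that leukocytes use to read sugars and other ligands on neighbouring cells and microbes. Their expression was measured with single-colour arrays in mouse epidermal samples, either not wounded or collected up to 4 h after a wound. The members were all probe sets whose RefSeq accession mapped to a symbol beginning with Clec, Klr, Cd209 or Siglec, together with Cd22, Cd33, Mag, Mrc1, Mrc2 and Ly75, and without Klrk1. They numbered 58 probe sets for 51 genes, out of 1246 probe sets in the table, 963 of them named. By family there were 19 probe sets for 19 Clec genes, 14 for 10 Klra genes of the Ly49 family, and 11 for 9 Siglecs, counted with Cd22, Cd33 and Mag. A further 6 represented 5 genes of the DC-SIGN (Cd209) family, 5 other NK cell receptors (Klrd1, Klrc1, Klrc3, Klrg1 and Klrb1f) and 3 the mannose receptor family (Mrc1, Mrc2 and Ly75).

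The groups were 4 non-wounded samples, 1 sample at 0 h, 2 samples at 30 min, 4 samples at 2 h and 1 sample at 4 h after wounding. Every title opens with B6, which the labels do not explain, and no genotype, age, sex or pooling is given. The labels call the cells dendritic epidermal T cells (DETC), the gamma delta T cells that reside in mouse epidermis, while the design text describes RNA of the whole epidermis. Whether replicates came from separate mice is not stated, so the tests below rest on a spread between samples that may be technical.

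C-type lectins share a calcium-dependent carbohydrate recognition fold, although many members of the family bind proteins or lipids instead. On phagocytes and dendritic cells they capture glycans for uptake and signalling. In the NK gene complex the Ly49 and NKG2 receptors bind MHC class I and related ligands. The NKR-P1 receptors of that complex have other ligands, such as the product of Clec2d. Siglecs bind sialic acid, the sugar that ends many mammalian glycans, and most of them carry inhibitory motifs in their cytoplasmic tails. In mouse epidermis members of these families are carried by Langerhans cells, dendritic epidermal T cells and keratinocytes.

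Markers of the labelled cell type were checked in all 12 samples. Of 11 T cell markers in the list used, 4 were measured. In non-wounded samples the integrin Itgae averaged 5.32 ± 0.11 on the log2 scale (SD, n = 4), the cytokine receptor chain Il2rb 5.09 ± 0.29, the activation marker Cd69 2.47 ± 0.17 and the activating receptor Klrk1 2.38 ± 0.12. Cd69 and Klrk1 lay under 2.53, the limit of the lowest 10% of all probe sets. The subunits Cd3e and Cd3g of the T cell receptor complex, which define T cells, were not analysed here. The keratinocyte galectin Lgals7 lay between 11.00 and 12.36 and the Langerhans cell lectin Cd207 between 6.57 and 9.32 over the 12 samples. Transcripts of keratinocytes and Langerhans cells were thus present beside any from T cells. In bulk RNA of this kind, fewer cells of a type and less RNA per cell cannot be told apart.

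The 5 samples numbered 1 in the titles, 1 in each group, differed from the other 7 in the members' values. Over all probe sets the SD of the log2 values was 1.55 to 1.85 in these 5 and 2.19 to 2.30 in the 7 others. The median of the 58 members was 3.30 to 3.65 in the 5 and 2.81 to 2.98 in the 7. Sample number 1 gave the highest value of its group for 51 of 58 members without wounding, 52 at 30 min and 50 at 2 h. Over all 1246 probe sets that held for 53.5% without wounding, 56.9% at 30 min and 49.7% at 2 h. Among the 4 brightest members the pattern was the other way, with number 1 the highest for 1 of 4 without wounding, 1 of 4 at 30 min and 0 of 4 at 2 h. Each comparison is therefore also given for the samples numbered 2 to 4 alone. The 0 h and 4 h groups hold only a sample numbered 1, so at 0 h and 4 h time and sample number cannot be told apart.

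Most members lay in the lower range of signal in non-wounded samples. Values are given on the log2 scale of the deposited table. The median of the 58 member means was 3.09, against 4.11 over all probe sets, and 49 of the 58 lay under that overall median. Only 4 members had a mean above 5, while 6 lay between 4 and 5, 20 between 3 and 4, and 28 at or under 3. The lowest 10% of all probe sets reached up to 2.53 and held 125 probe sets, of which 19 were members. The arrays carry no detection call, so a low value is not a statement that the transcript was absent. The order of members is one of probe set signal, which also depends on the probes, and is not an order of transcript abundance.

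The brightest member was Mrc2, also called Endo180, an endocytic receptor that takes up collagen. It had values of 6.15, 7.51, 6.81 and 6.54 in the non-wounded samples numbered 1 to 4, a mean of 6.76 ± 0.57 (SD, n = 4). Clec2d, also called Clr-b, is a ligand of inhibitory NKR-P1 receptors on NK cells, and had 5.65, 7.31, 7.06 and 6.71, a mean of 6.68 ± 0.73. The order of these 2 turned in the samples numbered 2 to 4 alone, with a mean of 7.03 for Clec2d and 6.96 for Mrc2. Clec11a, which encodes a secreted growth factor of bone marrow and bone, had 6.69, 5.41, 5.82 and 5.58, a mean of 5.87 ± 0.57. For Clec11a the sample numbered 1 was the highest, whereas for Mrc2 and Clec2d it was the lowest. Klrd1 encodes CD94, the partner chain of the NKG2 receptors that bind the MHC class Ib molecule Qa-1, and had 4.97, 5.41, 5.87 and 5.29, a mean of 5.38 ± 0.38.

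Below these 4 the next members followed closely on one another. Siglec15, known from osteoclasts, had 4.64, 4.64, 4.59 and 4.28 in the non-wounded samples numbered 1 to 4. Clec3b, which encodes the plasminogen-binding protein tetranectin, had 5.03, 4.45, 4.33 and 4.20. Mag, the myelin-associated glycoprotein of glial cells, had 4.74, 4.49, 4.29 and 4.33. These 3 had means between 4.46 and 4.54 and could not be ordered. Cd209a, a mouse homologue of DC-SIGN of dendritic cells, averaged 4.20 ± 0.18 (SD, n = 4), Clec4n, which encodes the fungal receptor Dectin-2, 4.13 ± 0.22, and the MHC class I receptor gene Klra9 (Ly49I) 4.05 ± 0.24. Of the 57 pairs of neighbours in the order of means, 56 had overlapping ranges in the 4 samples. The one gap lay between Klrd1, with a lowest value of 4.97, and Siglec15, with a highest value of 4.64. The 10 brightest members stayed the 10 brightest under quantile normalization, median centring and median and SD scaling, and in the samples numbered 2 to 4 alone.

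**Figure D1:**
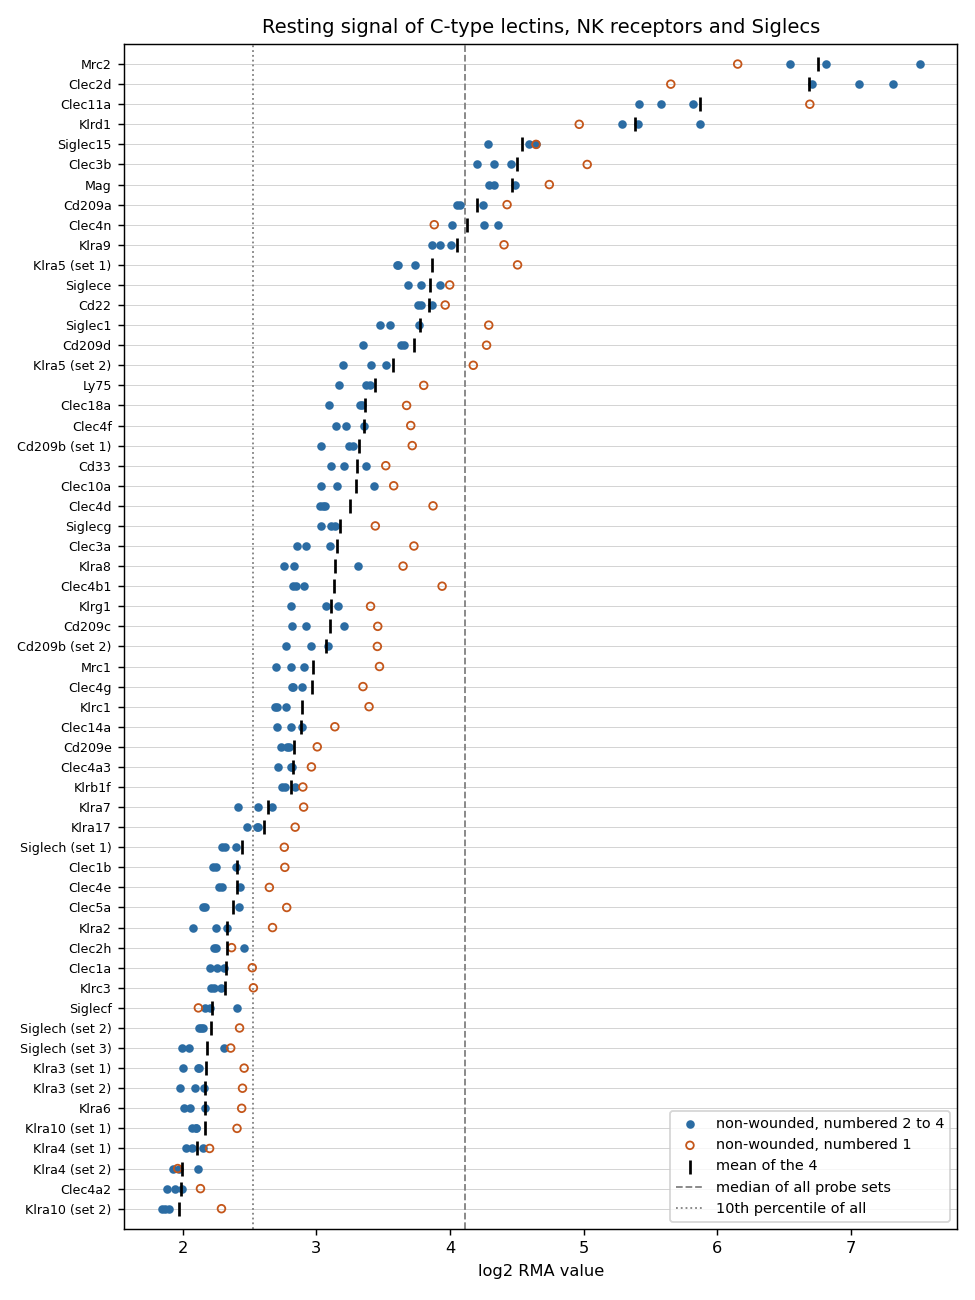
Log2 RMA value (x axis) of each of the 58 member probe sets (y axis, ordered by mean) in the 4 non-wounded samples, with the sample numbered 1 as an open circle, numbers 2 to 4 as filled points and the mean as a bar. The dashed line is the median of all 1246 probe sets (4.11) and the dotted line the limit of their lowest 10% (2.53); 49 members lie under the first and 19 at or under the second.

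The remaining members are described by family. The other Clec genes had means of 1.99 to 3.36. They included the phagocyte receptors Clec10a (3.30 ± 0.25, SD, n = 4), Clec4d (3.25 ± 0.41), Clec4e (2.41 ± 0.17) and Clec5a (2.38 ± 0.29), and the endothelial genes Clec14a (2.88 ± 0.19) and Clec1a (2.32 ± 0.14). Clec1b, the platelet receptor CLEC-2, was at 2.41 ± 0.25, the Kupffer cell receptor Clec4f at 3.36 ± 0.25 and the liver endothelial lectin Clec4g at 2.97 ± 0.25. Clec18a (3.36), Clec3a (3.15), Clec4b1 (3.13), Clec4a3 (2.83), Clec2h (2.33) and Clec4a2 (1.99) completed the family.

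The Siglecs spread between 2.18 and 4.54. Siglece had a mean of 3.85 ± 0.14 (SD, n = 4), the B cell inhibitory receptor Cd22 3.84 ± 0.09, the macrophage receptor sialoadhesin (Siglec1) 3.77 ± 0.37, Cd33 3.30 ± 0.18, the B cell gene Siglecg 3.18 ± 0.18 and the eosinophil gene Siglecf 2.22 ± 0.13. Siglech, a gene of plasmacytoid dendritic cells, had 3 probe sets with means of 2.44, 2.21 and 2.18. Among the DC-SIGN family Cd209d was at 3.73, Cd209b at 3.32 and 3.07 in its 2 probe sets, Cd209c at 3.10 and Cd209e at 2.83. The dendritic cell uptake receptor Ly75 (DEC-205) was at 3.44 ± 0.26 and the macrophage mannose receptor Mrc1 at 2.97 ± 0.34, so that Mrc2 was the only bright probe set of the 3 in its family.

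The Ly49 receptors had the lowest signal of the 6 families, with a median of 2.25 and no probe set above the overall median. Klra5 had 2 probe sets with means of 3.86 and 3.58, Klra8 was at 3.14, Klra7 at 2.64, Klra17 at 2.61 and Klra2 at 2.33. The probe sets of Klra3 (2.17 and 2.17), Klra6 (2.17), Klra10 (2.17 and 1.97) and Klra4 (2.11 and 1.99) lay lowest, and the second Klra10 set was the lowest of all 1246. Of the 14 Ly49 probe sets, 7 carry a suffix of the array maker for probes that can read several transcripts. Ly49 genes are related copies, some of them closely alike, so single Ly49 genes are uncertain. Beside Klrd1, the partner genes Klrc1 (NKG2A) and Klrc3 (NKG2E) were at 2.89 ± 0.34 and 2.32 ± 0.15, Klrg1 at 3.11 ± 0.25 and Klrb1f (NKR-P1F) at 2.81 ± 0.07 (SD, n = 4 each).

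Most members with a promoter window shared a feature of it that the choice by name did not use. RefSeq windows of the assembly GRCm38.p6, which run from 250 bases before to 50 after each annotated start, were matched for 41 of the 51 genes, 23 of them on chromosome 6, 8 on 7, 7 on 8, 2 on 2 and 1 on 12. No window was matched for Mrc2, Klrd1, Siglec15, Clec3b and Clec4n, which are among the 10 brightest members. Siglec1, Clec10a, Clec3a, Klrg1 and Clec1a had none either, so the counts below do not cover these genes. CG dinucleotides, a motif that reads the same on both strands, were counted in each window. A window with 10 or more was found for 1 of the 41 genes (2.44%), against 68.8% of 667 other measured genes with a window and 45.8% of all 27025 genes with one. The limit of 10 was set after the data were seen. The median was 3 per window for the members, 18 for the other measured genes and 8 for all genes. In the other measured genes the median resting signal was 5.88 with 10 or more CG and 3.49 with fewer. Members with a window that held fewer had a median of 2.93, without the bright members that lack a window. These counts describe the windows and were not tested. Of the 41 windows, 3 are shown in lower case, 5′ to 3′ on the strand of the gene, with each CG in capitals. Clec2d is the brightest member with a window (chr6:129180365-129180664, plus strand, 5 CG, 44.3% G and C), Ly75 is the one member with 10 or more (chr2:60383224-60383523, minus strand, 21 CG, 67% G and C), and Klra10 has the lowest probe set of the table (chr6:130281879-130282178, minus strand, 1 CG, 34.3% G and C).
Clec2d: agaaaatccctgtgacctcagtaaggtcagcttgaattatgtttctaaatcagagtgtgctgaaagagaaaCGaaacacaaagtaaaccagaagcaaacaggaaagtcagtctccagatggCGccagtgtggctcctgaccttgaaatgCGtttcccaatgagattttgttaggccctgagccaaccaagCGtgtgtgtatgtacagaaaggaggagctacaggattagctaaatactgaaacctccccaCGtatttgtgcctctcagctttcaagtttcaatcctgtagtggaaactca
Ly75: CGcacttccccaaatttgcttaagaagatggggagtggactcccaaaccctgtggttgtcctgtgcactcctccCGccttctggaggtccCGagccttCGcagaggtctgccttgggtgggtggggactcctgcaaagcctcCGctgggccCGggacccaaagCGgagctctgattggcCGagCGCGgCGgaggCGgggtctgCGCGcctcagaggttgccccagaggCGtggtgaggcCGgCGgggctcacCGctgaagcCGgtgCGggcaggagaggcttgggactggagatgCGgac
Klra10: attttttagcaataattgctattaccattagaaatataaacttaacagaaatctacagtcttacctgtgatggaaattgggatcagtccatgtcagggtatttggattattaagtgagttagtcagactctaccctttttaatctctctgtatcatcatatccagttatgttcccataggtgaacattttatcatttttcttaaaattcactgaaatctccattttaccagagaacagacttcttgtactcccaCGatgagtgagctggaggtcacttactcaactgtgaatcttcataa

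**Figure D2:**
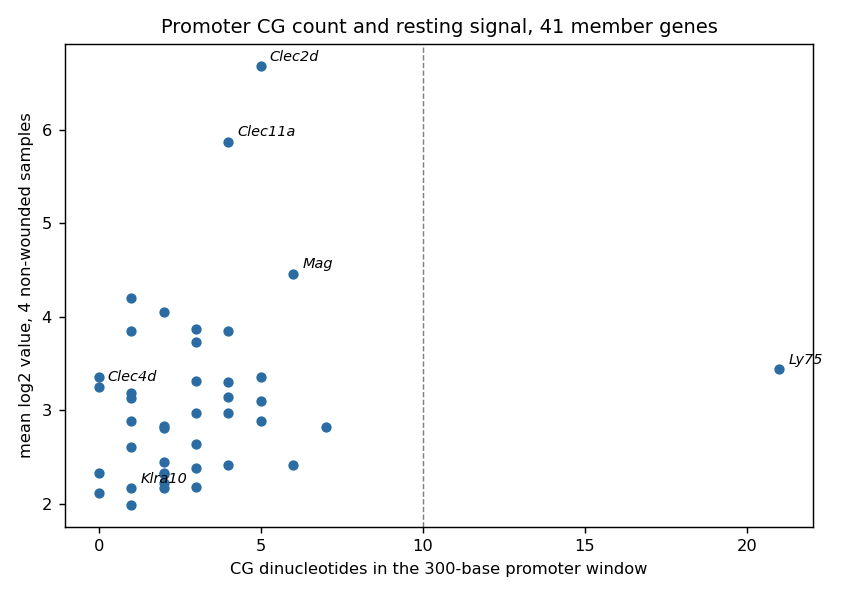
Number of CG dinucleotides in the 300-base promoter window (x axis) and mean log2 value of the 4 non-wounded samples (y axis) for the 41 member genes with a window, 1 point per gene at its brightest probe set. The dashed line marks 10 CG; Ly75 with 21 is the single point to its right, and Clec2d and Clec11a lie highest with 5 and 4.

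The first comparison asked whether any member differed 2 h after wounding. In limma, with p-values adjusted by Benjamini-Hochberg over all 1246 probe sets and a threshold of 0.05, 0 of 58 members passed, against 3 probe sets of the whole table (0.241%). With the replicate number as a block 0 members and 17 probe sets passed (1.36%), and in the samples numbered 2 to 4 alone 0 members and 38 probe sets (3.05%). At an unadjusted p under 0.05 there were 0 members and 58 probe sets (4.65%), or 0 and 172 with the block (13.8%). Every member had a limma adjusted p of 0.998, and the smallest with the block was 0.453. The differences of the 58 ran from -0.39 to 0.44 on the log2 scale with a median of 0.08, beside a median of 0.03 over all probe sets. They were above 0 for 43 members (74.1%) and for 54.5% of all probe sets. That split depended on scaling, with 29 of 58 above 0 after quantile normalization, 27 after median centring and 19 with median and SD scaling. The share of all probe sets above 0 moved with the scaling too, to 46.7%, 39.9% and 36.7%.

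Clec4d, which encodes MCL, a receptor of myeloid cells for mycobacterial glycolipid and the partner of Mincle, had the largest difference among the members at 2 h. Its values were 4.11, 3.22, 3.98 and 3.47 in the 2 h samples numbered 1 to 4, against 3.87, 3.05, 3.03 and 3.07 in the non-wounded samples. The groups overlapped through the non-wounded sample numbered 1, and within each number the 2 h sample was the higher one, by 0.24, 0.17, 0.96 and 0.40 for numbers 1 to 4. The log2 difference was 0.44 ± 0.27 (SE), or 1.36-fold, with a 95% confidence interval of -0.15 to 1.04 and a limma adjusted p of 0.998. For numbers 2 to 4 alone it was 0.51 (limma adjusted p = 0.219). Clec4e, which encodes Mincle, averaged 2.59 at 2 h and 2.41 without wounding. Markers of neutrophils, a cell type known for Clec4d and Clec4e, were measured beside them. The 4 measured of 8 markers summed to log2 values of 19.32, 20.92, 20.46 and 20.87 in the 2 h samples numbered 1 to 4, against 17.78, 19.67, 20.44 and 19.83 in the non-wounded samples. That sum too was higher at 2 h within each number, and its part in the Clec4d values was not tested.

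Klra9 had 4.38, 4.14, 4.34 and 4.61 in the 2 h samples, against 4.40, 3.86, 4.01 and 3.93 in the non-wounded samples. The difference of 0.32 ± 0.24 (SE) came from the samples numbered 2 to 4, where it was 0.43 (limma adjusted p = 0.162), and was -0.02 between the samples numbered 1. Klra7, the Ly49G gene, had 3.46, 2.70, 2.80 and 2.77 at 2 h, against 2.90, 2.67, 2.57 and 2.41 without wounding, a difference of 0.29 ± 0.25. Within each number the 2 h sample was the higher one, by 0.55, 0.03, 0.23 and 0.35 for numbers 1 to 4, and the groups overlapped. Clec3b had 5.32, 4.58, 4.48 and 4.75 at 2 h, against 5.03, 4.45, 4.33 and 4.20 without wounding (0.28 ± 0.25). Within each number the 2 h sample was the higher one for Clec3b, and the ranges of the groups overlapped. Clec10a, the macrophage lectin for galactose-type sugars, had 3.78, 3.38, 3.41 and 3.44 at 2 h, against 3.58, 3.43, 3.03 and 3.15 without wounding (0.21 ± 0.17). Cd209a had 4.07, 4.03, 3.96 and 3.98 at 2 h, against 4.43, 4.05, 4.07 and 4.25 without wounding. It was lower in every 2 h sample than in the non-wounded sample of the same number, with a mean difference of -0.19 ± 0.14, and the groups overlapped through the 2 h sample numbered 1. None of these 5 passed the test (limma adjusted p = 0.998 each).

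The 4 brightest members were also without a call. Mrc2 had 5.37, 6.78, 6.36 and 6.95 at 2 h, against 6.15, 7.51, 6.81 and 6.54 without wounding, a difference of -0.39 ± 0.42 (SE) with a 95% confidence interval of -1.33 to 0.54. Clec2d had 5.97, 6.69, 6.30 and 6.53 at 2 h, against 5.65, 7.31, 7.06 and 6.71 without wounding, a difference of -0.31 ± 0.34 with an interval of -1.07 to 0.44. For Clec2d the samples numbered 2 to 4 did not overlap and were lower at 2 h, with a difference of -0.52 (limma adjusted p = 0.185), while between the samples numbered 1 the 2 h sample was higher by 0.32. Clec11a had 5.39, 5.73, 5.89 and 5.50 at 2 h, against 6.69, 5.41, 5.82 and 5.58 without wounding. Its difference of -0.25 ± 0.28 rested on the non-wounded sample numbered 1, being -1.30 between the samples numbered 1 and 0.11 in the rest. Klrd1 had 3.88, 5.75, 5.40 and 5.46 at 2 h, against 4.97, 5.41, 5.87 and 5.29 without wounding. Its difference of -0.26 ± 0.48 was -1.09 between the samples numbered 1 and 0.01 in the rest.

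**Figure D3:**
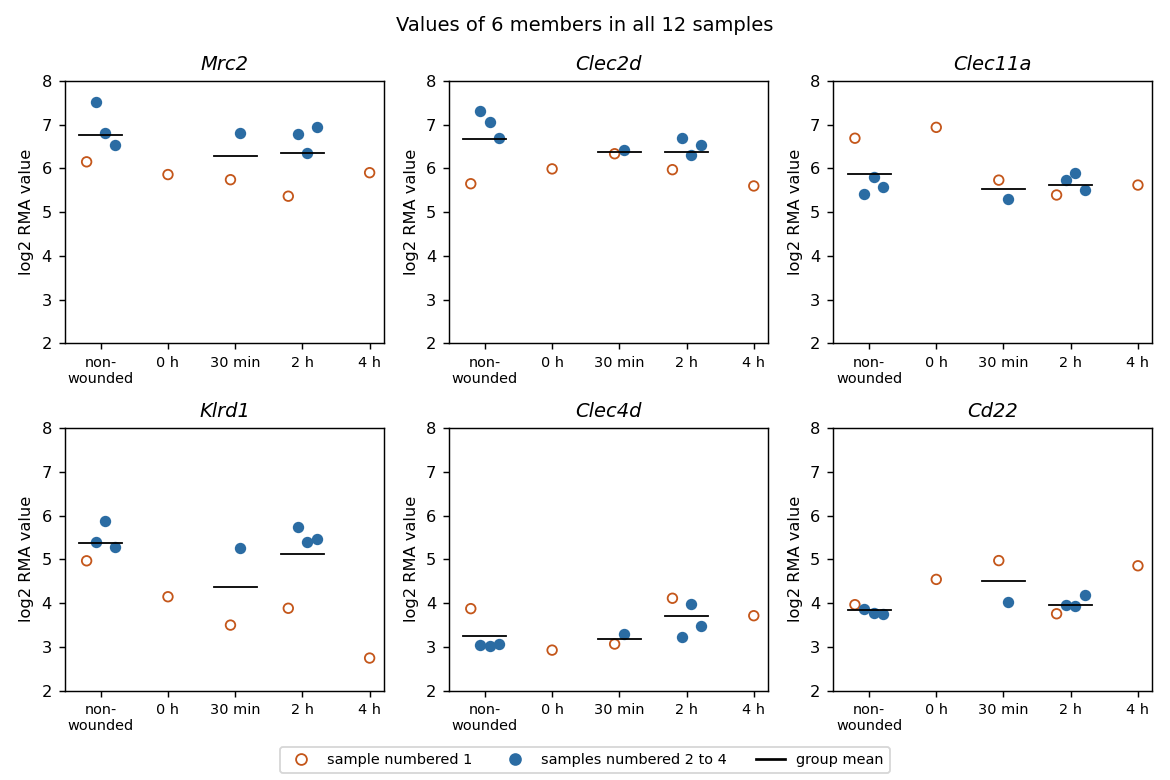
Log2 RMA value (y axis) of 6 members in all 12 samples, by time after wounding (x axis), with samples numbered 1 as open circles, the others as filled points and the mean of each group with more than 1 sample as a line. For Klrd1 the samples numbered 1 lie at 4.97 (non-wounded), 4.14 (0 h), 3.50 (30 min), 3.88 (2 h) and 2.74 (4 h), while the samples numbered 2 to 4 lie between 5.26 and 5.87 in the 3 groups that have them.

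Counts of members without overlap were near the share of the whole table. At 2 h 1 member, Siglec15, lay above all non-wounded samples (2.01% of all probe sets did), with 4.66, 4.65, 4.64 and 4.64 at 2 h, against 4.64, 4.64, 4.59 and 4.28 without wounding. The lowest 2 h value (4.6433) and the highest non-wounded value (4.6430) were nearly the same, and the difference of the means, 0.11 on the log2 scale, rested on the non-wounded sample numbered 4. No member lay below all non-wounded samples (2.73% of all probe sets did). Among the samples numbered 2 to 4 alone 11 members lay above (19%, against 14.7% of all probe sets) and 3 lay below (5.17%, against 10.4%). The 3 were Clec2d, Cd209a and 1 probe set of Klra5, and the 11 were Clec4d, Klra9, Clec3b, Cd22, Clec3a, Klra7, Siglecg, Klrc3, Siglec15, Clec4g and Clec4b1, with differences of 0.12 to 0.51. Mag, which had 5.87, 4.45, 4.44 and 4.47 at 2 h, against 4.74, 4.49, 4.29 and 4.33 without wounding, differed by 0.35 ± 0.32 (SE) through the 2 h sample numbered 1.

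Differences were also taken between samples of the same number. The members higher at 2 h in all 4 pairs numbered 8 (13.8%, against 13.4% of all probe sets), namely Clec4d, Clec3b, Klra7, Siglecg, Clec4g, Mrc1, Siglec15 and 1 probe set of Cd209b. Those lower in all 4 numbered 2 (3.45%, against 11.6%), Cd209a and 1 probe set of Klra5. Between the samples numbered 1 the differences at 2 h ran from -1.30 (Clec11a) to 1.16 (Siglecf), and 14 of 58 were 0.5 or more in size. In the single pairs numbered 2, 3 and 4 there were 2, 2 and 3 of that size. The SD over the 58 differences was 0.46 in the pair numbered 1 and 0.19, 0.23 and 0.19 in the pairs numbered 2 to 4, a description with no test. The medians of the 4 pairs were 0.18, -0.04, 0.06 and 0.13. Differences of means over numbers 2 to 4 ran from -0.52 (Clec2d) to 0.51 (Clec4d), a range that averaging 3 samples narrows. By family the median at 2 h over all samples lay between 0.02 in the DC-SIGN family and 0.11 in the Siglecs, with 0 called in each of the 6 families with or without the block.

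**Figure D4:**
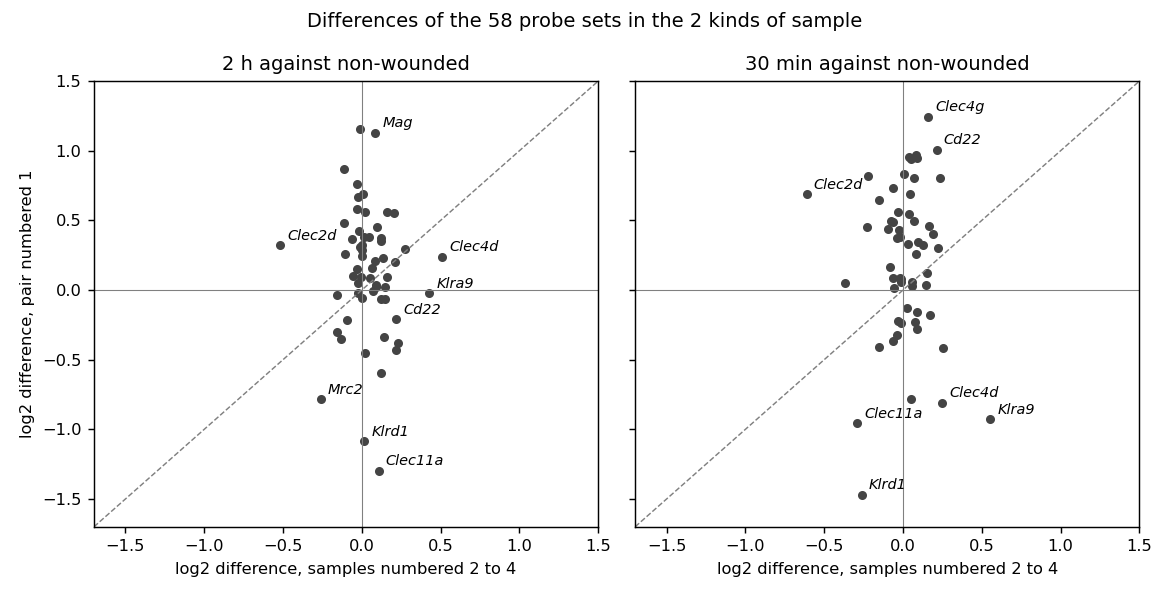
Log2 difference of each of the 58 members in the samples numbered 2 to 4 (x axis) and between the samples numbered 1 (y axis), at 2 h against non-wounded (left) and 30 min against non-wounded (right), 1 point per probe set, with the line of equality dashed. In both panels the points spread along the y axis, from -1.30 to 1.16 at 2 h and from -1.47 to 1.24 at 30 min, and stay within -0.61 and 0.55 on the x axis; each y value sets 1 sample against 1, while each x value uses means of 3 samples (1 sample for 30 min), which narrows its range.

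The second comparison asked whether any member differed 30 min after wounding. No member passed, 0 of 58 in the limma fit, with the block or in the samples numbered 2 to 4 alone, and no probe set of the table did (0%). At an unadjusted p under 0.05 there was 1 member, Cd22 (1.72%, against 5.06% of all probe sets). With the block there were 4, namely Clec4g, Cd22, Klra7 and Klrd1 (6.9%, against 10.9%). The smallest limma adjusted p among the members was 0.735, or 0.432 with the block. Differences ran from -1.005 to 0.83 on the log2 scale with a median of 0.22, beside 0.04 over all probe sets, and 49 of 58 were above 0 (84.5%, against 53.8%). After quantile normalization the members' median was 0.09, beside 0.002 over all probe sets, with 36 of 58 above 0 (50.3% of all probe sets). After median centring it was 0.12, beside -0.06, with 37 of 58 above 0 (43.2%). With median and SD scaling the median over all probe sets was -0.09 and that of the members -0.0080, with 27 of 58 above 0 (40.7% of all probe sets). The members' median was 0.10 with the block and 0.03 in the samples numbered 2 to 4 alone, where 30 min has a single sample whose spread is taken from the other groups.

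Cd22, which restrains signalling of the B cell receptor, had 4.97 and 4.02 in the 30 min samples numbered 1 and 2, against 3.96, 3.87, 3.78 and 3.76 in the non-wounded samples. Both 30 min values lay above the non-wounded range, as they did for Siglecf among the members and for 2.49% of all probe sets. The difference was 0.65 ± 0.26 (SE) with a 95% confidence interval of 0.07 to 1.23 and a limma adjusted p of 0.735. It was 1.01 between the samples numbered 1 and 0.21 in the rest. Siglecf had 2.58 and 2.42 at 30 min, against 2.12, 2.40, 2.16 and 2.20 without wounding. No member lay below all non-wounded samples at 30 min (5.14% of all probe sets did). Of 5 B cell markers in the list used, Cd22 itself was the only one measured.

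The other members with the smallest p at 30 min shared 1 high sample. Clec4g had 4.59 and 3.00 at 30 min, against 3.35, 2.90, 2.82 and 2.81 without wounding, a difference of 0.83 ± 0.40 (SE). Klra7 had 3.71 and 2.79 at 30 min, against 2.90, 2.67, 2.57 and 2.41 without wounding (0.61 ± 0.31). Klrb1f, which encodes a receptor of the NKR-P1 family, had 3.86 and 2.86 at 30 min, against 2.90, 2.76, 2.84 and 2.74 without wounding (0.55 ± 0.29). In each case the 30 min sample numbered 1 was far above the 4 non-wounded samples and the sample numbered 2 lay within their range. Cd209e had 3.94 and 2.82 at 30 min, against 3.01, 2.80, 2.78 and 2.73 without wounding (0.55 ± 0.29). The Siglech probe set with the resting mean of 2.21 had 3.23 and 2.20 at 30 min, against 2.42, 2.15, 2.13 and 2.12 without wounding (0.51 ± 0.27), while the 2 other Siglech probe sets differed by 0.20 and 0.03. The endothelial gene Clec14a had 4.09 and 2.84 at 30 min, against 3.14, 2.81, 2.89 and 2.70 without wounding (0.58 ± 0.31). Each of these 6 had a limma adjusted p of 0.735, and their differences for numbers 2 to 4 alone lay between 0.04 and 0.24. With the 30 min sample numbered 2 left out, the 30 min level rested on the lone sample numbered 1. The differences were then 1.62 for Clec4g, 1.05 for Klrc3, 1.13 for Cd22 and 1.21 for Clec14a. They were 1.11 for Cd209e, 1.02 for the same Siglech probe set and 1.19 for Clec4e.

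Klrd1 had the lowest difference of the members at 30 min. It had 3.50 and 5.26 in the 30 min samples numbered 1 and 2, against 4.97, 5.41, 5.87 and 5.29 without wounding. The difference was -1.005 ± 0.59 (SE, limma adjusted p = 0.735), or -1.47 between the samples numbered 1 and -0.26 in the rest. Clec11a had 5.73 and 5.31 at 30 min, against 6.69, 5.41, 5.82 and 5.58 without wounding. Clec2d had 6.34 and 6.41 at 30 min, against 5.65, 7.31, 7.06 and 6.71 without wounding, so that both 30 min values lay inside the non-wounded range. Mrc2 had 5.74 and 6.81 at 30 min, against 6.15, 7.51, 6.81 and 6.54 without wounding. Clec4d had 3.06 and 3.30 at 30 min, within the non-wounded range of 3.03 to 3.87, and Klra9 had 3.47 and 4.48, which lay on either side of the non-wounded range of 3.86 to 4.40.

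The third comparison set 2 h directly against 30 min. It shares its samples with the first and second, so the 3 are not independent. No member passed, 0 of 58 in the limma fit (0% of all probe sets) and 0 with the block (0%), and in the samples numbered 2 to 4 alone 0 members and 2 probe sets passed (0.161%). At an unadjusted p under 0.05 there were 0 members and 27 probe sets (2.17%), or 0 and 67 with the block (5.38%). The members' median was -0.14, or -0.03 with the block and 0.02 in the samples numbered 2 to 4 alone, beside 0.01 over all probe sets. Only 15 of 58 were above 0 (25.9%, against 50.6% of all probe sets). There were 24 after quantile normalization (48.7% of all probe sets), 16 after median centring (52.2%) and 22 with median and SD scaling (52.2%). The limma adjusted p of the members lay between 0.980 and 0.997.

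The members with the smallest p in this comparison were those with a high 30 min sample numbered 1. Cd22 had 3.76, 3.95, 3.92 and 4.18 at 2 h, against 4.97 and 4.02 at 30 min, a difference of -0.54 ± 0.26 (SE). The same Siglech probe set had 2.36, 2.07, 2.07 and 2.28 at 2 h, against 3.23 and 2.20 at 30 min (-0.52 ± 0.27). Clec14a had 3.13, 2.87, 2.95 and 2.78 at 2 h, against 4.09 and 2.84 at 30 min (-0.53 ± 0.31). For all 3 the 30 min sample numbered 2 lay within the range of the 2 h samples. Clec4g had 3.58, 3.01, 2.97 and 2.94 at 2 h, against 4.59 and 3.00 at 30 min (-0.67 ± 0.40). Cd209e had 3.16, 2.88, 2.74 and 2.90 at 2 h, against 3.94 and 2.82 at 30 min (-0.47 ± 0.29). Klrb1f had 3.32, 2.77, 2.75 and 2.77 at 2 h, against 3.86 and 2.86 at 30 min (-0.46 ± 0.29). The differences of these 6 in the samples numbered 2 to 4 alone lay between -0.10 and 0.03. Without overlap, 1 member was lower at 2 h (1.69% of all probe sets), Cd209a with a difference of -0.08, and 0 members were higher (3.77%).

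The single samples at 0 h and 4 h were set beside the 4 non-wounded samples, without a test. Klrd1 was at 2.74 at 4 h, a difference of -2.22 from the lowest non-wounded value, and at 4.14 at 0 h, a difference of -0.82. It was the 1 member that lay 1 or more below the non-wounded range at 4 h (5.54% of all probe sets did). The 5 samples numbered 1 gave Klrd1 values of 4.97 without wounding, then 4.14 at 0 h, 3.50 at 30 min, 3.88 at 2 h and last 2.74 at 4 h, with no replicate of this series. Beside it, the T cell markers Itgae and Il2rb in the samples numbered 1 were at 5.24 and 4.89 without wounding, 5.42 and 4.61 at 0 h, 4.87 and 4.96 at 30 min, 4.09 and 5.08 at 2 h, and finally 4.48 and 5.27 at 4 h. The 4 T cell markers summed to 15.11 at 4 h and 14.95 to 15.85 without wounding, a sum that joins markers that went different ways. At 4 h Itgae lay below the non-wounded samples (5.24 to 5.48). Cd69, a dim probe set, lay above them (2.87, against 2.27 to 2.665). Il2rb and the dim Klrk1 lay within their non-wounded ranges. The part of T cell number in the Klrd1 values was not tested. Klrd1 lay between 5.26 and 5.87 without wounding, at 30 min and at 2 h in the samples numbered 2 to 4.

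Clec1a, a C-type lectin of endothelial cells, was the 1 member that lay 1 or more above the non-wounded range at 4 h (2.01% of all probe sets did). It was at 3.86 at 4 h, 1.34 above the highest non-wounded value. It had 2.52, 2.31, 2.20 and 2.26 without wounding, 2.69 at 0 h, 3.01 and 2.19 at 30 min, and 2.83, 2.21, 2.21 and 2.31 at 2 h. Clec14a, the other endothelial lectin, was at 3.83 at 4 h. The 3 endothelial markers measured of 9 in the list summed to 9.80 at 4 h, against 8.86 to 9.76 in the non-wounded samples. They went different ways at 4 h. Pecam1 (3.15) lay below the non-wounded samples (3.22 to 3.62), while Sele (2.835) and Selp (3.82) lay above them (2.39 to 2.64 and 3.17 to 3.53). Set against the non-wounded sample numbered 1 alone, Clec1a was 1 or more higher at 4 h (3.29% of all probe sets) and Klrd1 and Clec11a were 1 or more lower (8.51%), Clec11a with a difference of -1.07. At smaller sizes 31 members lay above the non-wounded range at 4 h (53.4%, against 38.8% of all probe sets) and 6 below it (10.3%, against 28.3%). At 0 h 33 members lay above the range (56.9%, against 29.5% of all probe sets) and 4 below it (6.9%, against 14.6%). No member lay 1 or more above or below it at 0 h (0.0803% and 0.482% of all probe sets).

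Genes that act with these receptors were described from lists beside the members. Of 33 other genes with a C-type lectin domain 29 were measured, and 23 of them had a log2 difference above 0 at 2 h, with a median of 0.12. None passed in the limma fit and 1 did with the block, the Langerhans cell lectin Cd207, which averaged 8.78 at 2 h and 7.86 without wounding. Its difference was 0.91 ± 0.46 (SE), with a limma adjusted p of 0.998, or 0.0448 with the block and 0.101 for numbers 2 to 4 alone. The surfactant lectin Sftpd differed by 0.27 ± 0.21. Of the 4 Langerhans cell markers measured of 9 in the list, summed log2 values were 27.74 to 32.28 at 2 h and 28.69 to 31.39 without wounding, and Cd207 is among them. The others did not all go the way of Cd207. Cd74 averaged 10.67 at 2 h and 10.78 without wounding, Csf1r 7.41 and 7.65, and Ccr6 4.03 and 3.96.

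Enzymes that make and remove the sialic acid ligands of Siglecs were measured on the same arrays. Of 20 sialyltransferases 19 were measured and none passed at 2 h, with or without the block. St6gal1, which makes the ligand of Cd22, averaged 4.93 at 2 h and 5.40 without wounding, a difference of -0.47 ± 0.19 (SE, limma adjusted p = 0.855). St3gal1 averaged 4.82 at 2 h and 4.43 without wounding (0.40 ± 0.20, limma adjusted p = 0.998). Of 12 genes of sialic acid synthesis and removal 8 were measured, and 2 had a difference above 0 at 2 h. The sialidase gene Neu3 averaged 2.53 at 2 h and 3.16 without wounding, a difference of -0.63 ± 0.18. Neu3 did not pass in the limma fit (adjusted p = 0.354) or with the block (0.122), and passed in the samples numbered 2 to 4 alone (0.0194). Gne, which starts sialic acid synthesis, differed by -0.48 ± 0.27 (limma adjusted p = 0.998). Of 9 galectins 8 were measured, 4 had a difference above 0 at 2 h and none passed. The lists of receptor adaptors and of NKG2D ligands matched no named probe set and were not analysed here.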

How the data were processed

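Trizol was used to extract total RNA, from which biotin-labelled cRNA was made for Affymetrix arrays, per the labels' protocols. The deposited table held log2 values of 1246 probe sets in 12 samples, which the authors made with RMA (background correction, normalization and probe set summary), per the submitters' processing notes. The array name and the software version were not given in the sources used here. RMA values hold no depth or detection call, and precision is limited by the number of arrays.

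Probe set accessions were matched without versions to a RefSeq gene table (GRCm38.p6, for names and promoter windows); 963 probe sets matched 1 symbol and 283 none. The members and lists were chosen with earlier results of these data known. Members given with values per sample followed a rule: the 10 highest resting means, the 6 smallest p of each of 3 comparisons, any member called with or without the block, and any 0 h or 4 h value 1 or more (log2) outside the non-wounded range. Members named in counts of 11 or fewer, or for a fit with 1 sample left out, were named after their values were seen. They were Siglecf, Siglecg, Klrc3, Klra5, Mrc1, Cd209b, Clec3a, Clec4b1 and Clec4e. Of the lists, up to 4 called genes or the 2 with the smallest p at 2 h were taken, and the 2 galectins so taken, Lgals12 and Lgals4, differed by -0.28 and -0.27 (limma adjusted p = 0.998 each).

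The main test was limma 3.58.1 (lmFit, eBayes, R 4.3.3), fitted to all 12 samples with group means and no block. Benjamini-Hochberg adjustment ran over the 1246 probe sets, and the fit was tested on simulated data. SE, confidence intervals and limma adjusted p of members are from this fit unless another is named. At 2 h against non-wounded the SE with the block was 0.21 for Mrc2 (0.42 without), 0.22 for Clec4d (0.27) and 0.25 for Klra9 (0.24). Alternatives were 3 other scalings, the replicate number as a fixed or random block, a term for number 1, the samples numbered 2 to 4, only the groups compared, a filter at the 25 percentile of mean level, a robust prior with an intensity trend, weights per array, the brightest probe set of each gene and leaving out each sample. Same-numbered samples at 2 h and without wounding deviated together from their group means. The correlations over all probe sets were 0.796, 0.449, 0.651 and 0.297 for numbers 1 to 4, each over 0.1. Deviations within a group cancel out, so the shift of number 1 in both groups also enters the deviations of numbers 2 to 4. These correlations therefore cannot show whether numbers 2 to 4 are pairs. The numbers were used as a block, or for differences within a number, beside the main fit and not in it. Over the 58 members alone the correlations were 0.455, 0.409, 0.290 and 0.013, the last of them under 0.1. Pairing by number thus rests on the titles' numbers, and the labels do not say what a number marks. Plots used matplotlib 3.10.9 (Python 3.11.15).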

Additional observations from a re-analysis of the deposited data

Results flagged for a closer look

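In 9 of 40 tests of a named member within the 2 h or the non-wounded group, 1 sample stood apart from the other 3 by Dixon's criterion, which chance meets in about 1 of 20 groups. The sample was number 1 in 8 of the 9, and these 8 were the highest of their group. The rate of 1 in 20 is for independent groups not picked by their values. These members share the same arrays and were named in part by their values, so 9 of 40 cannot be judged by it. At 2 h Mag was at 5.87 in the sample numbered 1 and at 4.44 to 4.47 in the others, Clec10a at 3.78 and 3.38 to 3.44, Klra7 at 3.46 and 2.70 to 2.80, Klrb1f at 3.32 and 2.75 to 2.77, and Clec4g at 3.58 and 2.94 to 3.01. Without wounding Clec4d was at 3.87 in the sample numbered 1 and at 3.03 to 3.07 in the others, Clec4g at 3.35 and 2.81 to 2.90, and the second brightest Siglech probe set at 2.42 and 2.12 to 2.15. The ninth was Siglec15, at 4.28 in the non-wounded sample numbered 4 and at 4.59 to 4.64 in the others. The 4 values of Siglec15 at 2 h and the other 3 without wounding together span 4.59 to 4.66.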

How the results depend on the processing

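The number of members called was 0 under 58 of 59 alternatives over the 3 comparisons. The exception was 30 min without the 30 min sample numbered 2. That leaves 1 sample numbered 1 for 30 min, with its spread taken from the other groups, so its calls are not read as a result. Leaving out each sample in turn gave 0 to 0 calls at 2 h against non-wounded, 0 to 7 at 30 min and 0 to 0 at 2 h against 30 min, with medians of the members from -0.05 to 0.16, -0.06 to 0.49 and -0.38 to 0.14.

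With the replicate block, 0 members were called in each comparison and the medians were 0.08 at 2 h, 0.10 at 30 min and -0.03 at 2 h against 30 min, so the block changed no call among the members. Over all probe sets at 2 h 3 passed without the block, 17 with it and 38 in the samples numbered 2 to 4 alone.

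Of 341 differences of named members under alternatives, 328 kept their direction and their side of the threshold, 4 passed without the 30 min sample numbered 2 (Cd22 1.13, Clec4g 1.62, Cd209e 1.11 and Siglech 1.02 on the log2 scale) and 9 turned. Without the 30 min sample numbered 1, the 30 min differences of Cd209e and Siglech were -0.0065 and -0.0054. At 2 h against 30 min, leaving out each sample gave ranges of -1.16 to 0.0963 for Clec14a, -1.47 to 0.122 for Clec4g, -1.03 to 0.0954 for Cd209e and -0.963 to 0.0418 for Klrb1f, the upper end of each being without the 30 min sample numbered 1. For numbers 2 to 4 alone, the differences at 2 h against 30 min were 0.0045 for Cd22, 0.0304 for Clec14a and 0.0141 for Cd209e. Those settings leave 1 sample at 30 min, and the cause was not tested. The means of the 10 brightest members moved by less than 1 SD between samples in all 80 alternatives. For the dim members, with no detection call, signal over background is not known.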
